A study of Mus musculus with 3 samples.

Results

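The genes described here encode the cargo proteins of neutrophil granules, and they were read in the polysomal RNA of mouse bone marrow cells. They are the 10 listed genes, out of 48795 gene identifiers, with each symbol matched to 1 identifier in the GENCODE M21 annotation of GRCm38. The early group holds 4 genes of the primary granules, Mpo, Elane, Prtn3 and Ctsg. The late group holds 6 genes that neutrophil precursors switch on afterwards, S100a8, S100a9, Ltf, Camp, Ngp and Lcn2. The samples were 2 libraries from mice of the genotype wildtype (WT 1 and WT 2) and 1 library from a mouse of the genotype Mat KO (Mat KO 1). All 3 came from bone marrow cells kept for 10 minutes in 100 µg/ml cycloheximide, which holds ribosomes on their mRNAs. Polysomes were then separated on a sucrose gradient of 10% to 50%. Matched total RNA was not analysed here, so a count stands for RNA in the polysomal sample and not for ribosome load per mRNA. The sources used here do not state the strain, the age, the altered allele behind Mat KO or any pooling of mice. The title of the series places the work on small nucleolar RNAs of the imprinted Dlk1-Gtl2 locus and on translation, and the comparison addresses mRNA on polysomes with and without the Mat KO genotype.

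Neutrophils store their antimicrobial proteins in granules that are filled in a fixed order as the cell matures in the marrow. Promyelocytes make the primary (azurophil) granules, with myeloperoxidase and serine proteases, and myelocytes and later stages make the secondary (specific) granules, with lactoferrin, cathelicidin and lipocalin 2. The proteins are made at the precursor stages and the mature cell largely carries them ready made, which is why early and late granule mRNAs serve as stage markers. S100a8 and S100a9 encode the subunits of calprotectin, which lies mainly in the cytosol and not in a granule, although their mRNAs belong to the later stages. In bulk RNA, fewer cells of a stage and less RNA per cell cannot be told apart.

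The 3 libraries differed in what they held before any genotype was considered. They had 64547 to 239429 gene-assigned counts, but 4 features (the gene Lars2, the rRNA feature CT010467.1, and mt-Rnr1 and mt-Rnr2, the rRNAs of mitochondria) took 67.6% of these in WT 1, 99.0% in WT 2 and 88.5% in Mat KO 1. Outside these features 20903 counts remained in WT 1, 2301 in WT 2 and 14430 in Mat KO 1, and levels are given below per 10000 of these counts. WT 1 had counts for 4349 genes, WT 2 for 425 and Mat KO 1 for 642. Of 8 defining neutrophil markers, 4 had a count in WT 1 and 0 had one in WT 2 or Mat KO 1. In WT 1 Mmp9 had 36 counts and Retnlg 18, while Csf3r and Cxcr2 had 1 each. Among those at 0 in all 3 libraries were Ly6g, Itgam and Mmp8. So WT 2 and Mat KO 1, though labelled bone marrow, had no count of these markers. With 2301 counts left in WT 2, counts of 0 there say little for markers this low. Pancreatic acinar genes, which marrow should lack, had 737 counts in Mat KO 1 against 14 in WT 2 and 1 in WT 1. Per 10000 these were 511, 60.8 and 0.478. Liver secreted protein genes, with 559 counts, and skeletal muscle genes, with 289, were in turn highest in WT 1. Per 10000 the liver genes stood at 267 in WT 1, 113 in WT 2 and 0 in Mat KO 1.

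All 10 granule genes had counts in WT 1, and none had a count in WT 2 or in Mat KO 1. The early genes summed to 29 counts in WT 1 and the late genes to 450. This pattern is common in the data: of the 4856 genes with a count in any library, 79.7% were counted in WT 1 alone. Among the 2004 genes whose count in WT 1 lay in the range of the granule genes, 3 to 137, the share was 85.8%. For the early genes, with 3 to 9 counts, the share among genes of that range was 89.0% (1427 of 1604). For the late genes, with 18 to 137 counts, it was 64.6% (82 of 127). That range is wide. Counts of 0 outside WT 1 were usual at the low counts of the early genes. At 80 to 199 counts, where S100a8, S100a9 and Ngp lie, 6 of 18 genes showed them (33.3%), and these 3 are among the 6. Of the 18, 10 were at 0 in Mat KO 1 and 8 in WT 2. The 18 include mitochondrial and noncoding features, all with counts in Mat KO 1. The nuclear protein-coding genes among the 18 were all at 0 in Mat KO 1, other than Apoe (158 counts in WT 1, 62 in WT 2 and 18 in Mat KO 1). The number of genes in the ranges includes the granule genes themselves.

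**Figure D1:**
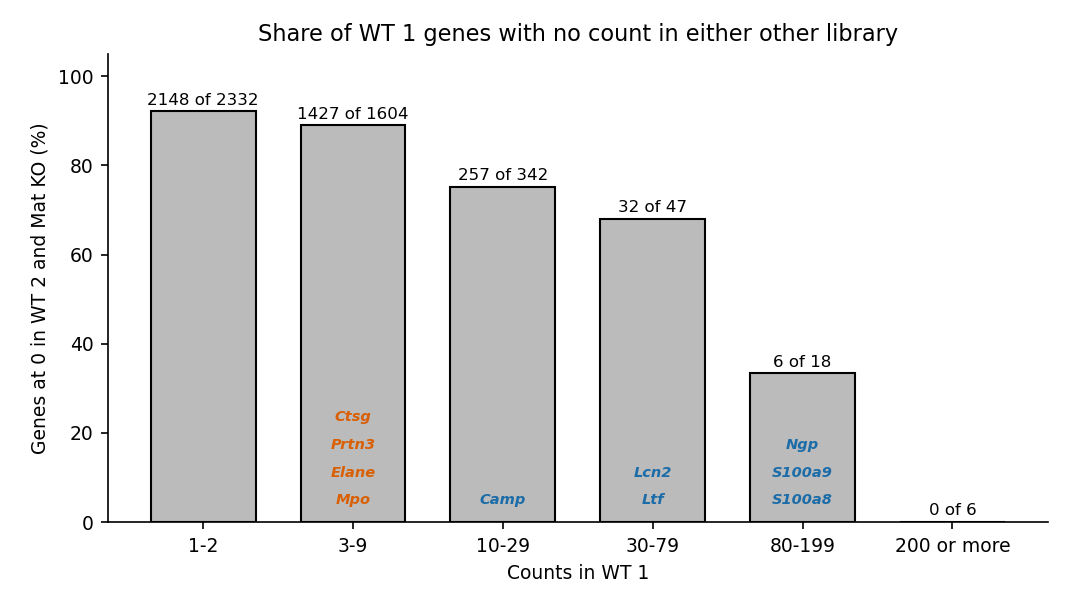
Share of genes with 0 counts in both WT 2 and Mat KO 1 (y axis, percent, bars) by their count in WT 1 (x axis, bins), with the number of genes above each bar and the granule genes written in their bin (early in orange, late in blue). The share falls from 2148 of 2332 genes at 1 to 2 counts to 6 of 18 at 80 to 199 counts, where S100a8, S100a9 and Ngp lie.

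The early genes were near the lower end of what WT 1 could measure. Elane, neutrophil elastase (GRCm38 chromosome 10 from 79886247 to 79888215, plus strand), was counted 9 times in WT 1 and 0 times in WT 2 and Mat KO 1. Prtn3, proteinase 3, a protease closely related to elastase, had the same 9, 0 and 0 counts. The genes lie side by side on chromosome 10, with 3072 bases between their annotated ends. Mpo, myeloperoxidase, the haem enzyme that makes hypochlorous acid, had 8, 0 and 0 counts (chromosome 11 from 87793581 to 87804413). Ctsg, cathepsin G, a serine protease of another locus (chromosome 14 from 56099881 to 56102574), had 3, 0 and 0 counts. For each early gene WT 1 was above the other libraries by no more than 9 counts, and WT 2, of the same genotype, was at 0 as Mat KO 1 was.

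Promoter letters are shown for these neighbours because both carry, upstream of the start, the core GAGGAA that PU.1, the main myeloid ETS factor, can bind. Capitals mark the matches of the motifs searched on both strands, GAGGAA, TTGCNNAA (C/EBP factors), TGTGGT (RUNX factors) and TATAAA. The stretches are RefSeq sequence of GRCm38.p6, plus strand, from 250 bases before the RefSeq start to the first base annotated as exon in GENCODE, chr10:79886062-79886246 for Elane and chr10:79879417-79879613 for Prtn3.
Elane: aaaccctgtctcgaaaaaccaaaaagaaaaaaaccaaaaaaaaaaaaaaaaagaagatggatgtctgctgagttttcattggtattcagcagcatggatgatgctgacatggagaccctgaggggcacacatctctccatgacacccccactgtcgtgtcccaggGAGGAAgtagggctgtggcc
Prtn3: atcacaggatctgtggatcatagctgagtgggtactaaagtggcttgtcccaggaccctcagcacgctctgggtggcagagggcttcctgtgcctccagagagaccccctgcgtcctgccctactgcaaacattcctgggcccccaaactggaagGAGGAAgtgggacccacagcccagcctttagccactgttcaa
The match began at -85 in Elane and at -95 in Prtn3, counted back from the RefSeq start. The Prtn3 stretch lies inside the gene as GENCODE annotates it, which starts at 79874476. In the 250 bases before the start, 4 of 4 early genes and 3 of 6 late genes held GAGGAA or its reverse complement, against 23.3% of 32851 RefSeq promoters.

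Calprotectin genes led the late group. S100a8 was counted 137 times in WT 1 and 0 times in WT 2 and Mat KO 1. S100a9, which encodes its partner subunit, had 133, 0 and 0. They lie 22.6 kb apart on chromosome 3 (S100a8 from 90668978 to 90670035 and S100a9 from 90692632 to 90695721). Their counts in WT 1 gave a ratio of 1.03 (95% exact interval 0.805 to 1.32), so no difference in counts was detectable. They ranked 14 and 17 among the 4349 genes counted in WT 1, and 6 and 8 among its nuclear protein-coding genes with Lars2 set aside. Together they made up 270 of the 479 granule gene counts, or 56.4%. Both genes were thus among the most counted of WT 1 and at 0 in its WT replicate.

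Ngp, neutrophilic granule protein, a secreted protein of the cystatin and cathelicidin family, was counted 87 times in WT 1 and 0 times in WT 2 and Mat KO 1 (chromosome 9 from 110419747 to 110423012). Lcn2, lipocalin 2, which binds bacterial siderophores and so withholds iron, had 39, 0 and 0 (chromosome 2 from 32384633 to 32388252). Ltf, lactoferrin, the iron-binding protein of specific granules, had 36, 0 and 0 (chromosome 9 from 111019271 to 111042767). Camp, the cathelicidin antimicrobial peptide precursor, had 18, 0 and 0 (chromosome 9 from 109847379 to 109849617). For each of the 4, as for calprotectin, the genotype groups overlapped: WT 1 was high, and WT 2 was at 0 with Mat KO 1. Lcn2 is also made by liver and epithelia in inflammation, and 4 acute phase genes had 71 counts in WT 1, led by Saa3 with 41, 0 and 0. How much of the Lcn2 count came from cells other than neutrophils was not tested.

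The upstream letters of Ngp, Ltf and S100a9 are shown because these late genes, with Lcn2, held the C/EBP letters that no early gene held in this window. Capitals mark the same motifs, and the stretches end at the first annotated exon base, chr9:110419558-110419746 (plus strand) for Ngp, chr9:111019042-111019270 (plus strand) for Ltf and chr3:90695722-90695971 (minus strand) for S100a9.
Ngp: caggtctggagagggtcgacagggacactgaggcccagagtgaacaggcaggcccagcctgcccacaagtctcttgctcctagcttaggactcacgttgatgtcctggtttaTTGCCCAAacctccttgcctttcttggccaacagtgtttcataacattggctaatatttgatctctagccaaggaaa
Ltf: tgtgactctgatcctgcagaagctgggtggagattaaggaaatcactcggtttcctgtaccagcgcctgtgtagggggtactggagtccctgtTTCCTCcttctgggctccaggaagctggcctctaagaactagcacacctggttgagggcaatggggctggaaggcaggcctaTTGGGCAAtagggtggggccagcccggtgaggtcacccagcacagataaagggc
S100a9: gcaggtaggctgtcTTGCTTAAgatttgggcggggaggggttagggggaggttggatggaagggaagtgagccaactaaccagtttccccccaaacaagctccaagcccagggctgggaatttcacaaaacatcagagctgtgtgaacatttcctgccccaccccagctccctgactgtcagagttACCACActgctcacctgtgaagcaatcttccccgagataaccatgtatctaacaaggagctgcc
The C/EBP letters began at -138 and -11 in Ngp, the latter beyond the stretch shown, at -75 in Ltf, at -236 in S100a9 and at -216 in Lcn2. They stood in the 250-base windows of 4 of 6 late and 0 of 4 early genes, against 9.56% of all promoters. The window of Lcn2 begins at a base annotated as exon in GENCODE. Neither its C/EBP match nor its GAGGAA match is therefore shown to lie upstream of the annotated gene. Camp held none of the 4 motifs. TGTGGT was in S100a9 and Ctsg (14% of all promoters), and TATAAA in S100a8 and Ctsg (12.4%). In S100a8 the TATAAA match at -30 directly followed a GAGGAA match at -36, on the opposite strand. The motifs were chosen after the counts were known, a match is not a bound site, and the counts do not measure binding. Only these exact letters were searched, so a window without a match, as in the early genes for C/EBP, is not shown to lack a site.

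By raw counts, late granule genes outnumbered early ones 15.5 to 1 in WT 1 (450 against 29 counts, 95% exact interval 10.7 to 23.4), and late genes made up 93.9% (91.4 to 95.9) of all granule gene counts. The intervals cover counting error only, and the labels mention no molecular identifiers. In WT 2 and in Mat KO 1 both groups were at 0, so no ratio exists there and no comparison of the balance between genotypes can be made. Without S100a8 and S100a9 the ratio was 6.21, and per gene, as 75.0 counts per late and 7.25 per early gene, it was 10.3. Scaled by length, as summed counts per kb of exon, it was 29.2, the exons of Mpo being long (3424 bases) and those of S100a9 short (522 bases). The lowest late gene, Camp at 18 counts, was above the highest early genes, Elane and Prtn3 at 9, so the groups did not overlap in raw counts.

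Per kb of exon the separation was less clean. S100a9 stood at 255 counts per kb (95% Poisson interval 213 to 302) and S100a8 at 197 (166 to 233), places 1 and 3 of the nuclear protein-coding genes of WT 1 with Lars2 set aside. Ngp followed at 71.2 (57.0 to 87.8), then Camp at 23.7 (14.1 to 37.5), Lcn2 at 14.9 (10.6 to 20.3) and Ltf at 10.4 (7.31 to 14.4). The early genes closed the order, with Elane at 9.15 (4.18 to 17.4), Prtn3 at 5.20 (2.38 to 9.86), Ctsg at 2.90 (0.599 to 8.49) and Mpo at 2.34 (1.01 to 4.60). Of the 9 neighbouring pairs in this order, 3 had an unadjusted 95% interval that left out a ratio of 1. They were S100a9 over S100a8 (ratio 1.29, 1.01 to 1.65), S100a8 over Ngp (2.77, 2.10 to 3.67) and Ngp over Camp (3.00, 1.79 to 5.29). The pairs were formed by sorting on these same values, so the intervals only describe them. Ltf and Elane, where late meets early, gave a ratio of 1.14 (0.539 to 2.69). The order of the calprotectin genes turned with the length used: over the longest transcript of each, S100a8 to S100a9 was 1.07 (0.839 to 1.37). Lcn2 also moved, from 14.9 to 28.4 counts per kb, since its exon union of 2623 bases is longer than its longest transcript of 1374, and Ltf to Lcn2 went from 0.702 (0.434 to 1.13) to 0.462 (0.286 to 0.747). Within the early group, Mpo lay below Elane on both lengths, at 0.255 (0.0858 to 0.746) and 0.318 (0.107 to 0.929). In raw counts the ratio was 0.889 (0.298 to 2.60), so this gap appeared only after scaling by length.

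**Figure D2:**
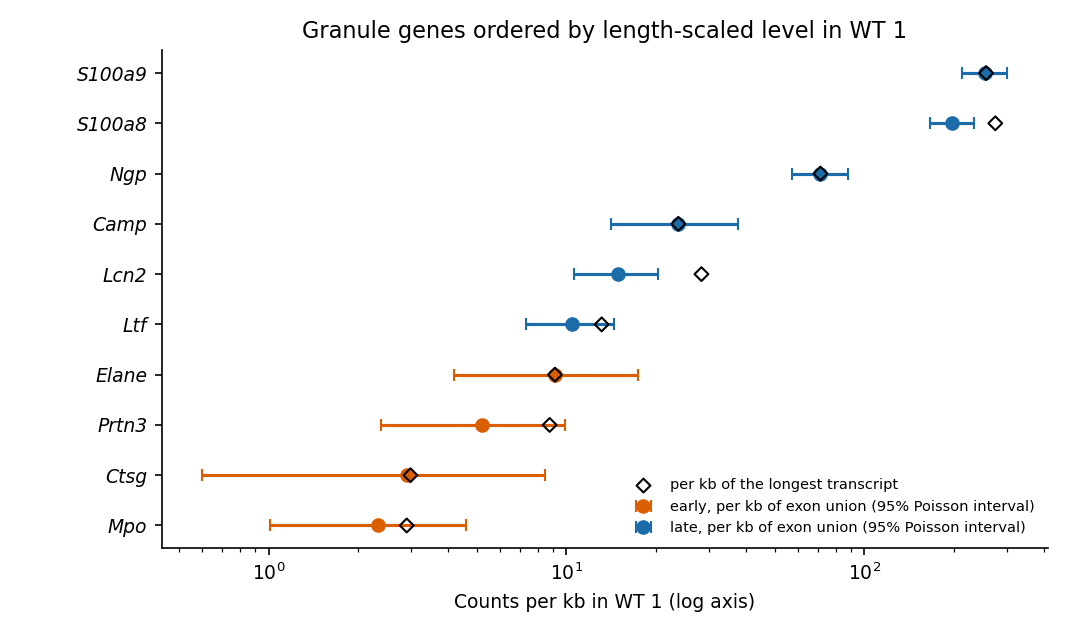
Counts per kb in WT 1 (x axis, log scale) for each granule gene (y axis, in order of level), as points with 95% Poisson intervals for the exon union, early in orange and late in blue, and open diamonds for the longest transcript. S100a9 and S100a8 stand highest, and Ltf at 10.4 and Elane at 9.15 have intervals that overlap.

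Overlap with other genes touched only the early group. An antisense gene, Gm11505, shares 512 of the 3424 exon bases of Mpo, and 12.0% of the 50-base words of the longest Mpo transcript also occur in it. Plppr3, on the other strand, shares 159 of the 1732 exon bases of Prtn3. Both partners had 0 counts in every library. Reads on several genes were recorded apart, at 33.5% to 74.3% of reads per library, so the counts of Mpo and Prtn3 may leave some reads out. The other 8 genes shared no exon base with another gene, and 9 of the 10, all but Mpo, shared no 50-base word with the transcripts of another gene.

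How much a count of 0 says depended on the gene. Taking 3 counts per library as the limit of a count of 0, the limit was 13.04 per 10000 in WT 2 and 2.08 in Mat KO 1. S100a8 lay at 65.5 per 10000 (Wilson interval 55.5 to 77.4) in WT 1, at least 31.5-fold higher than in Mat KO 1 and at least 5.03-fold higher than in WT 2. S100a9 at 63.6 (53.7 to 75.4) gave at least 30.6-fold and 4.88-fold, and Ngp at 41.6 (33.8 to 51.3) at least 20.0-fold and 3.19-fold. Lcn2 and Ltf, at 18.7 and 17.2, were at least 8.97-fold and 8.28-fold above Mat KO 1. Against WT 2 their bounds were 1.43-fold and 1.32-fold, and the interval of Ltf, 12.4 to 23.8, reaches below the limit of WT 2. Camp, at 8.61, was at least 4.14-fold above Mat KO 1, and its level lay under the limit of WT 2, where a difference was not detectable at this depth. Against nuclear protein-coding counts other than those of Lars2, the bounds over WT 2 shrank to 3.00-fold for S100a8, 2.91-fold for S100a9 and 1.90-fold for Ngp, while Lcn2 and Ltf fell under the limit of WT 2, where a difference was then not detectable. The bounds take WT 1 at its observed level and each read as an independent molecule.

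For each early gene alone, little could be read from the other libraries. At the share of WT 1, Elane and Prtn3 would each have given 0.991 counts in WT 2 and 6.21 (95% Poisson interval 2.84 to 11.8) in Mat KO 1. Mpo would have given 0.881 and 5.52, and Ctsg 0.330 and 2.07. Ctsg lay under the limit in Mat KO 1 as well, so no fold is given for it. Summed, the early genes were at 13.9 per 10000 (9.66 to 19.9) in WT 1, at least 6.67-fold above Mat KO 1. Against WT 2 the bound was only 1.06-fold, and the interval reaches below the limit of WT 2, 13.04. On the nuclear protein-coding scale the early sum fell under the limit of WT 2. The late genes were at 215 (196 to 236), at least 104-fold above Mat KO 1 and 16.5-fold above WT 2. At that share, 311 late counts would have been found in Mat KO 1 and 49.5 in WT 2. On the nuclear protein-coding scale the bounds shrank to 4.17-fold for the early genes and to 64.7-fold and 9.84-fold for the late genes. WT 2 and Mat KO 1 were alike in holding no granule gene count, so the difference rests on WT 1, and with WT 1 left out no granule gene has a count in any library. Large bounds over Mat KO 1 were not particular to granule genes. Per 10000 they were at least 129-fold for liver secreted protein genes, 97.8-fold for globin and erythroid markers and 66.5-fold for skeletal muscle genes. Pancreatic acinar genes went the other way, as given above.

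**Figure D3:**
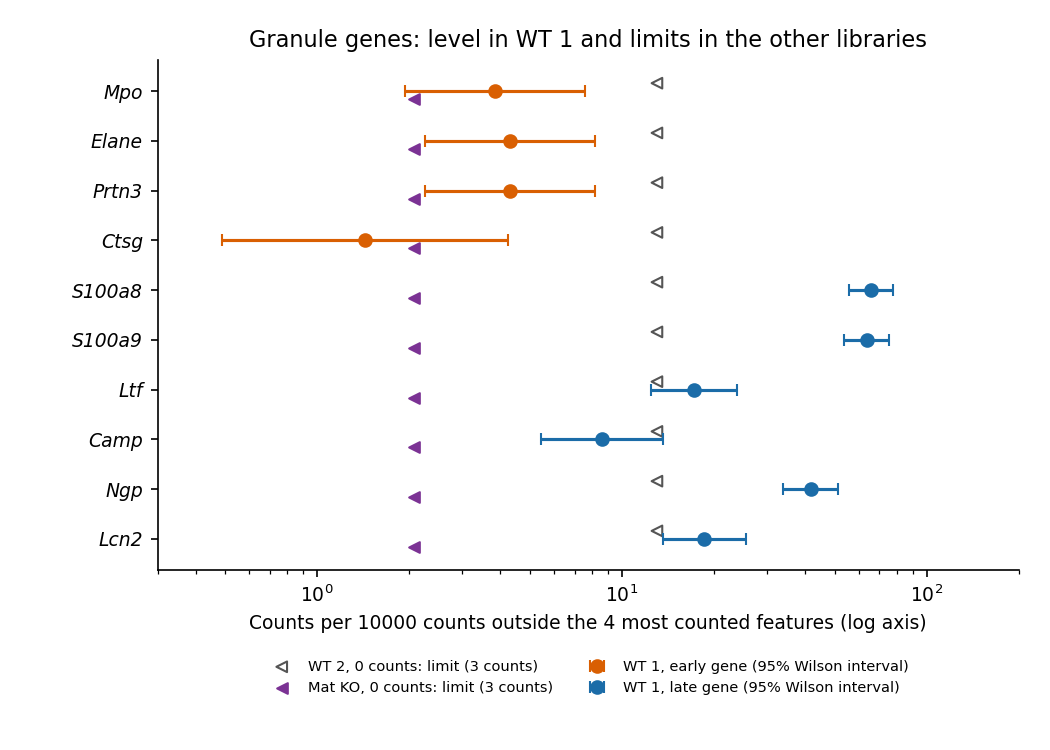
Level of each granule gene in WT 1 (points, early in orange and late in blue, with 95% Wilson intervals) and the limit of a count of 0 in WT 2 (open triangles) and in Mat KO 1 (filled triangles), per 10000 counts left when the 4 most counted features are set aside (x axis, log scale). All 4 early genes and Camp lie below the limit of WT 2 at 13.04, while S100a8, S100a9 and Ngp lie well above both limits.

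No granule gene was called between Mat KO and WT. The test across genes was edgeR's quasi-likelihood test on raw counts, with the lone Mat KO library assumed to vary like WT. Of 437 genes tested, 0 were called at a false discovery rate of 0.05 (0%), 0 had an unadjusted p under 0.05, and DESeq2, limma-voom and edgeR's likelihood ratio test called 0 as well, with 7, 20 and 71 genes at an unadjusted p under 0.05. The 6 late genes passed the filter on low counts, which they did through WT 1 alone, so their negative fold changes were fixed in advance. The early genes did not pass it and were not tested with this filter. For S100a8 edgeR gave a log2 fold change of -5.68 (adjusted p = 0.729), and for Camp, at the other end, one of -2.94 (adjusted p = 0.729). S100a9, Ngp, Lcn2 and Ltf lay between, at -5.64, -5.05, -3.94 and -3.84, with the same adjusted p. Approximate standard errors were 4.64 for S100a8 and 4.10 for Camp. They were not given by edgeR but calculated as the absolute log2 fold change over the square root of the test's F statistic. The median over all genes tested was -0.27. These fitted values depend on the prior count and are no bounds. The labels do not say whether the WT libraries came from separate mice, so the p-values measure only the spread between 2 libraries, which may be technical.

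Other granule genes were counted in WT 1 or in no library, and of all genes with a count in WT 1, 89.0% were counted there alone. Of 12 further primary granule genes, 5 had counts in WT 1, with 79 in all, 0 had a count elsewhere, and 7 were at 0 in all 3 libraries. Lyz2, lysozyme, had 58, 0 and 0 counts (in this order of libraries: WT 1, WT 2, Mat KO 1), Cd63, a membrane protein of primary granules, 7, 0 and 0, and Srgn, the proteoglycan serglycin that holds proteases in the granule, 4, 0 and 0. Lyz2 is shared with macrophages, and the macrophage and monocyte markers had 15, 0 and 0 counts over 9 genes, with 5 of them, Cd68 and Adgre1 included, at 0 in every library. Of 16 further secondary and tertiary granule genes, 10 had counts in WT 1, with 100 in all, 0 had a count elsewhere, and 6 were at 0 in all 3. Mmp9, gelatinase B of tertiary granules, had 36, 0 and 0, Pglyrp1, a peptidoglycan recognition protein, 20, 0 and 0, Chil3, a chitinase-like protein, 12, 0 and 0, and Hp, haptoglobin, which liver also makes, 11, 0 and 0. Of these 28 genes edgeR tested 3 and called 0. Retnlg, a resistin-like gene of mature neutrophils, had 18, 0 and 0.

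Among genes around granule formation, some chaperone genes were counted in all 3 libraries. The transcription factors, but for 1 count of Cebpb in WT 2, were seen in WT 1 alone, as were 89.0% of all genes with a count in WT 1. The chaperone genes that fold granule and other secreted proteins had 62, 8 and 40 counts over 7 genes, or 29.7, 34.8 and 27.7 per 10000, and their Wilson intervals overlapped. Calr, calreticulin, which assists the folding of myeloperoxidase in the endoplasmic reticulum, had 22, 4 and 28, and Hspa5, the chaperone BiP, 10, 2 and 11, whereas Hsp90b1, an endoplasmic reticulum chaperone, had 10, 0 and 0. Every secreting cell type uses these genes, and pancreatic acinar genes were high in Mat KO 1, as given above. The part of those cells in the chaperone counts was not tested. Of 12 transcription factor genes of the granulocyte lineage, 7 had a count in WT 1, with 34 in all, and only Cebpb had 1 elsewhere, at 1, 1 and 0. Per 10000 this list stood at 16.3 in WT 1 and 4.35 in WT 2, with Wilson intervals that overlap. Spi1, which encodes PU.1, had 10, 0 and 0 counts, Cebpa, which starts granulocyte differentiation, 7, 0 and 0, and Myb, a progenitor factor, 9, 0 and 0. Cebpe, the factor of secondary granule genes, was among the 5 with 0 counts in all 3 libraries. Of 21 genes of maturing neutrophils, 8 had a count in WT 1 and 13 were at 0 in all 3 libraries. The only count outside WT 1 was that of Clec4e, an inducible lectin receptor also found on macrophages, with 4, 22 and 0. Per 10000 this list stood at 22.5 (16.9 to 29.9) in WT 1 and 95.6 (63.2 to 144) in WT 2, with Wilson intervals that do not overlap. All 22 counts of WT 2 came from Clec4e.

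**Figure D4:**
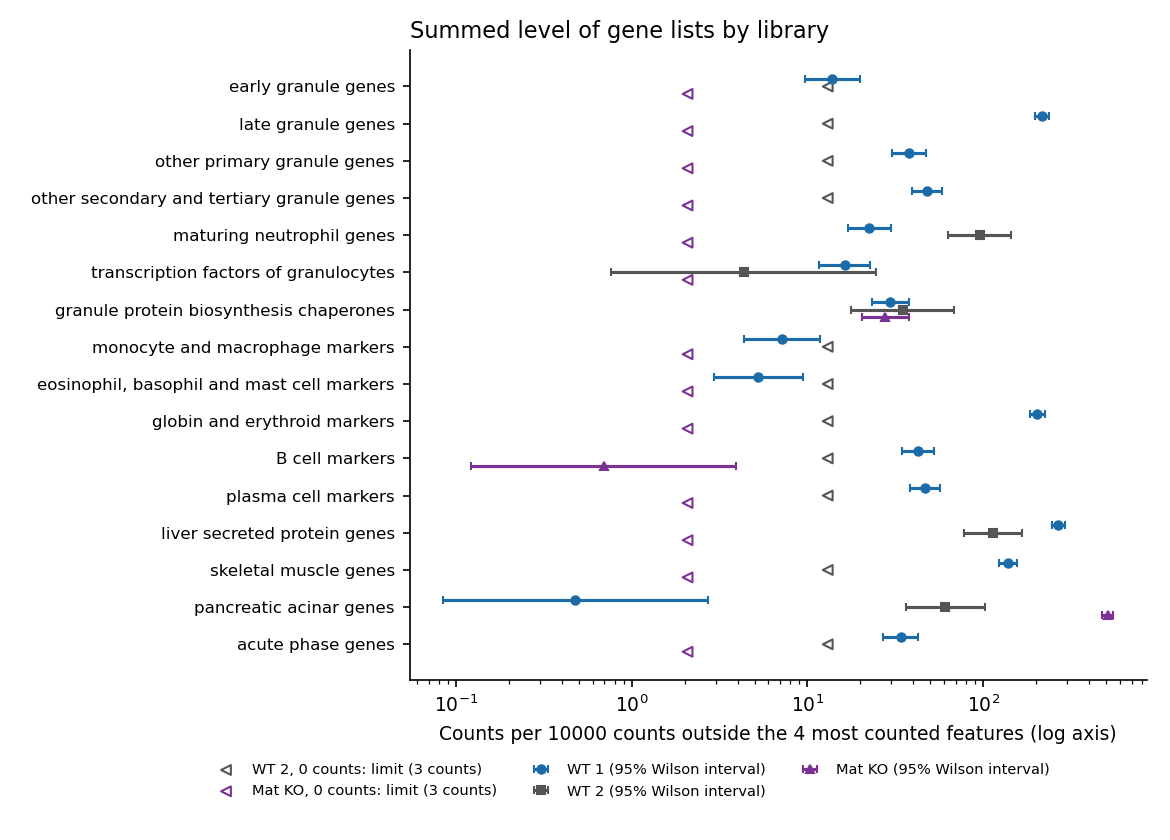
Summed level of 16 gene lists (y axis) in WT 1 (blue circles), WT 2 (grey squares) and Mat KO 1 (purple triangles), per 10000 counts left when the 4 most counted features are set aside (x axis, log scale), with 95% Wilson intervals, and open triangles at the limit of a count of 0. Late granule genes at 215 and globin and erythroid markers at 203 stand close together in WT 1, and the chaperone list is the only list shown whose intervals overlap in all 3 libraries.

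Other genes of WT 1 shared the pattern at the same abundance. The genes nearest to the median granule gene profile, by Euclidean distance on log2(CPM + 1) over the 3 libraries, were Mgst1 and Mylpf with 25, 0 and 0 counts and Rps20, Ibsp and Ftl1 with 26, 0 and 0. Mgst1, a microsomal glutathione transferase, is high in granulocyte progenitors, Mylpf is a muscle myosin light chain, Ibsp a bone matrix protein, Ftl1 ferritin light chain and Rps20 a ribosomal protein. A profile of 3 libraries with counts in 1 carries only that count, so this likeness does not set granule genes apart from muscle or bone genes. At the top of WT 1, among the 24 genes with at least 80 counts, a minimum chosen after the values were seen, 6 were at 0 in both other libraries. They were Hbb-bs, Hba-a1, S100a8, Col1a2, S100a9 and Ngp, of which 3 are late granule genes and 2 are globins. The 24 also include mitochondrial and noncoding features, all with counts in Mat KO 1. The globin and erythroid markers, at 425, 0 and 0 counts, were at 203 per 10000 (185 to 223) in WT 1, an interval that overlaps that of the late granule genes.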

How the data were processed

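The deposited tables hold raw counts of reads per Ensembl gene, 1 table per library, not normalized by the authors. The submitters' processing notes name Trimmomatic, HISAT2 (version 2.1.0), HTSeq (version 0.11.2) and the build GRCm38. Annotation release, strandedness and read length: not given in the sources used here. HTSeq's 5 summary lines, with 84.9% of reads in WT 1, 88.2% in WT 2 and 90.0% in Mat KO 1, did not enter library sizes or tests. GENCODE M21 named 48435 of 48795 identifiers. The granule genes and the 24 gene lists (252 of 253 symbols matched) were chosen with earlier results of these data known, and so was the scale outside the 4 most counted features. Named are all granule genes, up to 4 genes of each list with the most counts, the 5 nearest genes and the 4 most counted features; 1 list gene and its list total are not reported here. Col1a2, Apoe, Cebpb, Cebpe, the overlapping genes Gm11505 and Plppr3 and the markers at 0 were named after their values were seen. edgeR 4.0.16 (R 4.3.3) was run with TMM factors, filterByExpr (minimum count 10, minimum total 15), Benjamini-Hochberg adjustment and a prior count of 2, which left 1 residual degree of freedom. DESeq2 1.42.0 and limma 3.58.1 were alternatives. Intervals are at 95%, from SciPy 1.17.1. A simulation drew all libraries from a common mean profile, with changes added in Mat KO alone, and scored only changed genes that passed the filter. The real WT libraries were less alike, with counts for 4349 genes in WT 1 and 425 in WT 2. The recovery rates are therefore not shown to hold for these data. In simulated counts for Mat KO against WT at a dispersion of 0.01 (378 genes), edgeR recovered 74.7% of 4-fold and 88.5% of 16-fold changes. At the estimated dispersion of 3.88 (258 genes), it recovered 0 of 64 and 0 of 62.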

Additional observations from a re-analysis of the deposited data

How the results depend on the processing

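Total counts, other size factors, TMM without the 4 most counted features, no filter, a mean of at least 50 counts, DESeq2, limma-voom and, added after seeing the data, edgeR's likelihood ratio test each called 0 genes. The log2 fold changes of the late genes, whose sign the counts of 0 fix, ranged over 7 alternatives from -8.52 to -4.72 for S100a8 and from -5.62 to -2.17 for Camp, and the adjusted p, where a test was possible, from 0.366 to 0.847. The median over all genes tested was -0.27 with TMM, -0.69 with no filter, 0.31 with total counts, 0.51 with TMM without the 4 features, 0.53 with limma-voom, 0.75 with DESeq2-type size factors and 1.04 with DESeq2. Relative to that median S100a8 lay between -9.56 (DESeq2) and -4.64 (no filter), and Camp between -6.66 and -1.95 in the same 2 settings. The early genes entered only the setting with no filter. Their log2 fold changes there were -1.75 for Mpo, -1.87 for Elane and Prtn3 and -0.94 for Ctsg, with a sign that the counts of 0 also fix. The late to early ratio of 15.5 became 29.2 per kb of exon, 28.0 per kb of the longest transcript, 6.21 without S100a8 and S100a9 and 10.3 per gene. The late share of 215 per 10000 became 69.7 of all gene-assigned counts and 242 of nuclear protein-coding counts, and the early share of 13.9 became 4.49 of all gene-assigned counts. Genes with counts in WT 1 alone numbered 1720 in the range of the granule genes and 295 at 10 counts or more. No granule gene had a mean of 50 counts. Without WT replicate 1 both groups are at 0 for every granule gene, so no value was given, and leaving out either WT library leaves 1 against 1 with no test. No paired analysis was possible because Mat KO 1 is the only library of its genotype and its labels number no replicate.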

Other observations

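Other gene groups of granulocytes and marrow were read as well. Of the NADPH oxidase genes, Rac2, the GTPase of the oxidase in blood cells, had counts of 8, 0 and 0 (WT 1, WT 2, Mat KO 1), and Ncf1, a cytosolic subunit, 6, 0 and 0. Among 13 other S100 genes, 4 had counts in WT 1, summing to 18, led by S100a6 with 9, 0 and 0, against 270 for S100a8 and S100a9. Of the 4, S100a4 was also counted in WT 2, with 3, 1 and 0, and the list stood at 8.61 per 10000 in WT 1 and 4.35 in WT 2, with Wilson intervals that overlap. Inhibitors of granule proteases had 132, 0 and 0 counts. The liver-made Serpina1e, Serpina1b and Serpina1c, near-identical copies whose division of counts is uncertain, gave 44, 34 and 21 of these, and Slpi, an elastase inhibitor of epithelia and leukocytes, 14. Of 11 genes for receptors and partners of the granule proteins, 3 had a count in WT 1 and 8 were at 0 in all 3 libraries. Of the 3, Lrp1, an endocytic receptor that takes up lactoferrin, was also counted outside WT 1, with 11, 0 and 14. The other 2 were counted in WT 1 alone, as were 89.0% of all genes with a count in WT 1.

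Eosinophil, basophil and mast cell markers had 11, 0 and 0 counts over 11 genes, led by Ear2 with 8, 0 and 0, against 29 for the early granule genes. T and NK cell markers had 0 counts in WT 1 and 1 in Mat KO 1, from Trac. Stem and progenitor cell markers had more counts in Mat KO 1, with 6, 0 and 12 counts over 10 genes, or 2.87 per 10000 (Wilson interval 1.32 to 6.26) in WT 1 and 8.32 (4.76 to 14.5) in Mat KO 1, intervals that overlap. All 12 counts of Mat KO 1 came from Hoxb4, a homeobox gene, with 0, 0 and 12. Granulocyte and monocyte progenitor genes had 34, 0 and 0 counts, megakaryocyte markers 42, 0 and 0, B cell markers 89, 0 and 1 and plasma cell markers 98, 0 and 0.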
